A study of Mus musculus with 7 samples.

Results

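Accessible chromatin was examined at 10 genes of antigen presentation in mouse liver, the class I genes H2-K1 and H2-D1, their partners B2m and Tap1, the regulator Nlrc5, the class II genes H2-Aa, H2-Ab1 and H2-Eb1, their partner Cd74 and the regulator Ciita. A consensus region belonged to a gene when it overlapped the gene body or the 10000 bp on either side (GRCm38, GENCODE M21), and a region near several of the genes went to the gene with the nearest transcription start site (TSS). This gave 37 of the 55680 regions in the data. H2-K1 had 1 region, H2-D1 4, B2m 4, Tap1 5, Nlrc5 10, H2-Aa 2, H2-Ab1 3, H2-Eb1 2, Cd74 2 and Ciita 4.

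The libraries came from liver tissue of male C57BL/6N mice, 3 from young animals aged 3 months and 4 from aged animals of 18 months, with no genetic change or treatment in either group. They were made by Omni-ATAC-seq, in which a transposase inserts sequencing adapters where DNA in isolated nuclei is exposed. Per the deposited design text, the aged libraries trace to 3 animals, 1 of which was sampled in 2 lobules, and the labels do not say which libraries share an animal, so p-values treat them as 4 samples. The paper itself treats each aged library as a biological replicate of its own. Counts in regions summed to between 4474652 and 25461110 per library, with a median of 35 to 241 reads per region, and the number of reads limits the precision of the weaker regions. Promoter regions were found for all 8 hepatocyte markers but for 2 of 8 Kupffer cell and macrophage, 1 of 6 B cell, 1 of 7 T cell and 2 of 6 dendritic cell markers, so the tissue matched its label. In bulk tissue, fewer cells of a type and less accessibility per cell cannot be told apart.

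Class I molecules, made of a heavy chain such as H2-K or H2-D and beta-2-microglobulin (B2m), show peptides from inside the cell to cytotoxic T cells. They occur on nearly all nucleated cells, hepatocytes included, and Tap1 forms part of the transporter that brings peptides to them in the endoplasmic reticulum. Class II molecules, made of an alpha chain (such as H2-Aa) and a beta chain (such as H2-Ab1 or H2-Eb1) and assembled on the invariant chain Cd74, show peptides from taken-up material, and in liver they are found mainly on Kupffer cells, dendritic cells and B cells. Nlrc5 and Ciita are related transactivators without DNA binding of their own, and they act on class I and class II promoters through a module that the RFX complex, CREB family factors and NF-Y occupy.

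Promoter sequence was taken from the RefSeq windows of the mouse genome (build GRCm38.p6), which run from 250 bases before to 50 bases after an annotated start. The table held windows for 6 of the 10 genes, H2-K1, H2-D1, B2m, Tap1, H2-Aa and H2-Eb1. Each was searched on both strands, in the 180 bases before the start, for CCAAT (the Y box that NF-Y binds), AGNNACNG (the core of the X1 box bound by RFX), TGACG (the core of the X2 box), AANNGAAA (the core of interferon-stimulated elements) and GGGATTCC (the NF-kappa-B site of the class I enhancer). Among 32851 windows of all genes, 27.5% held CCAAT, 33.6% AGNNACNG, 14.8% TGACG, 15.1% AANNGAAA and 0.575% GGGATTCC in the same stretch. The stretches before H2-K1 and B2m and before H2-Aa and H2-Eb1 are printed to show the layout of the class I and class II promoters, read 5′ to 3′ on the gene's strand, with matches in capitals. They lie at chr17:34000348-34000527 (minus strand), chr2:122147507-122147686 (plus strand), chr17:34287824-34288003 (minus strand) and chr17:34305687-34305866 (plus strand), and each lies inside the gene's accessible region.
H2-K1: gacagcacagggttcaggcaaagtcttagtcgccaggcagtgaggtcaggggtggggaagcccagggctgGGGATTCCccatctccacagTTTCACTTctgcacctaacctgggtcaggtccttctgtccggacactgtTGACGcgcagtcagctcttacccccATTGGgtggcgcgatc
B2m: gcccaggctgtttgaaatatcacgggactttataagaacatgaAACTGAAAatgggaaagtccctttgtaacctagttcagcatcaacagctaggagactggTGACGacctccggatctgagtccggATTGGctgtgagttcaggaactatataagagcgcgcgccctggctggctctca
H2-Aa: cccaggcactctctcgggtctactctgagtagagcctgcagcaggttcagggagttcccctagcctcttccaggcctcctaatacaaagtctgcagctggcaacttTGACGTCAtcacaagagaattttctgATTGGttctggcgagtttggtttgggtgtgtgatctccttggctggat
H2-Eb1: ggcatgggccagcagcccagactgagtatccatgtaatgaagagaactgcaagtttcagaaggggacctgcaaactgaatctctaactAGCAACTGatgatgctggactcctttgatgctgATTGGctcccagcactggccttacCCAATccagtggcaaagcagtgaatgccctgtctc

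Counted back from the start, the H2-K1 stretch held the NF-kappa-B core at -110 to -103, the interferon element core at -90 to -83 on the other strand, TGACG at -41 to -37 and the Y box, as ATTGG, at -16 to -12. The H2-D1 window held the same 4 motifs in the same order, beginning at -170, -150, -101 and -76, and a further CCAAT at -53. The B2m stretch held an interferon element core at -137, TGACG at -78 and ATTGG at -53. TGACG stood before ATTGG in all 3. The H2-Aa stretch held TGACG on both strands as the overlapping palindrome from -74 to -67, with ATTGG at -48, and the H2-Eb1 stretch held the X1 core at -92 with ATTGG at -59 and CCAAT at -35. The Tap1 window held an X1 core at -95 and TGACG at -86. A match is a run of letters in the window and was not tested as a binding site.

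A promoter region was a region that came within 200 bp of an annotated start. Class I and class II promoters differed in level in both ages. Per kilobase of region, mean accessibility in young liver was 38.3 CPM (TMM-normalised counts scaled by library size) at H2-K1, 35.4 at H2-D1, 32.8 at Tap1, 25.8 at B2m and 20.8 at Nlrc5. It was 14.5 CPM per kb at H2-Ab1, 10.5 at H2-Aa, 9.78 at the H2-Eb1 region with the higher CPM and 7.87 at Cd74. H2-Eb1 has another, shorter promoter region, which measured 12.3 CPM per kb in young and 10.3 in aged liver and would stand above H2-Aa in young and above H2-Ab1, at 9.44, in aged liver. The weakest class I value in any young library, 20.4 CPM per kb at Nlrc5, lay above the strongest class II value, 16.99 CPM per kb at H2-Ab1. With the H2-Eb1 region of higher CPM, the mean levels had the same order in aged liver, from 44.8 CPM per kb at H2-K1 to 7.13 at Cd74. Neighbours in this order overlapped over the young libraries from H2-K1 to H2-D1, from H2-D1 to Tap1 and among the class II genes, whereas B2m and Nlrc5 overlapped with no neighbour. Ciita had no region at any of its 8 annotated starts, so no promoter value exists for it.

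None of the 37 regions was differentially accessible between aged and young liver at an adjusted p under 0.05 (edgeR quasi-likelihood test), where 5.74% of all regions were. DESeq2 and limma voom also called 0 of them, with 4691 and 4580 calls among all regions against 3198 with edgeR. The smallest adjusted p was 0.109, at a region downstream of B2m whose nearest start is that of Trim69. At an unadjusted p under 0.05, 1 region was higher in aged liver (11.9% of all regions) and 9 were lower (12.7% of all regions). Every aged library lay above every young one in 2 regions (10.2% of all regions) and below every young one in 7 (11.6% of all regions). The log2 fold change (aged minus young) was above 0 in 10 and below 0 in 27 of the regions, with a median of -0.26, while the median of all regions was -0.04. Above 0 lay 27.0% of the 37 regions, 46.6% of all regions and 41.0% of all regions that are not promoters. The number of the 37 above 0 moved with the scaling, to 5 with total counts, 7 with offsets on mean abundance and 13 with offsets on GC content. The call of 0 rested in part on aged replicate 4, without which 1 region passed, the exon region of H2-Ab1 described with that gene, among 4230 calls over all regions.

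The promoters of the class I genes stood on one side of 0 and those of the class II genes on the other. The 5 promoters of H2-K1, H2-D1, B2m, Tap1 and Nlrc5 had log2 fold changes of 0.10 to 0.29, with a median of 0.22, though 4 of them lay slightly below 0 (-0.11 to -0.03) once offsets on mean abundance were used, and Nlrc5 did (-0.02) under scaling by total counts. The 4 promoters of H2-Ab1, H2-Aa, H2-Eb1 and Cd74 had log2 fold changes of -0.59 to -0.20, with a median of -0.50, which was -0.32 without aged replicate 1, and Cd74 moved to 0.02 without young replicate 1. For comparison, the median over all 15422 promoter regions was 0.09, and 61.1% of them lay above 0. No promoter passed the adjusted test in either class.

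**Figure D1:**
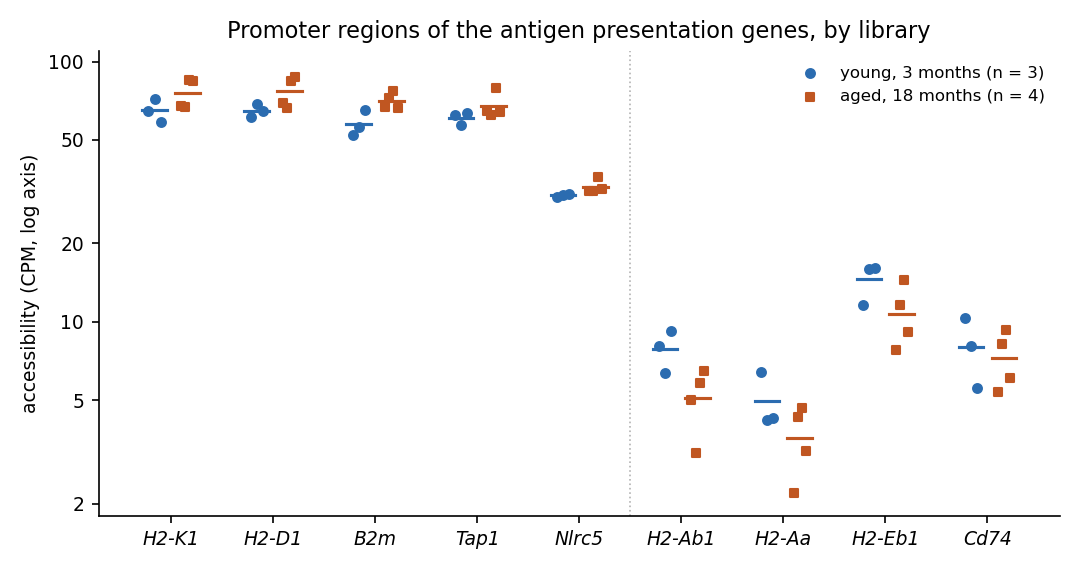
Accessibility of the promoter region of each gene in each library, in CPM on a log axis, with circles for the 3 young and squares for the 4 aged libraries and a horizontal line at each mean. The class I promoters and Nlrc5 lie between 30.2 and 87.6 CPM and the class II promoters between 2.196 and 16.1 CPM, and only B2m and Nlrc5 have every aged library above every young one.

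H2-K1 encodes a classical class I heavy chain, and its only region (chr17:33999157-34000852) covers its promoter. It measured 64.3, 72.0 and 58.4 CPM in young replicates 1 to 3 and 67.7, 67.1, 84.7 and 84.4 CPM in aged replicates 1 to 4. Aged replicates 3 and 4 lay above all young libraries, and aged replicates 1 and 2 lay within the young range. Aged minus young, this gave a log2 fold change of 0.22 (standard error (SE) 0.13, 95% interval -0.05 to 0.49, adjusted p = 0.301).

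H2-D1 encodes the other classical heavy chain of this strain. Its promoter region (chr17:35262606-35264434) measured 61.3, 68.4 and 64.5 CPM in young and 69.3, 66.3, 84.5 and 87.6 CPM in aged libraries. Aged replicates 3 and 4 were the highest, as at H2-K1, while replicate 1 lay just above the highest young library and replicate 2 within the young range. The log2 fold change was 0.25 (SE 0.12, 95% interval -0.02 to 0.51, adjusted p = 0.234). The H2-K1 and H2-D1 regions resemble each other, since 99.2% of the H2-K1 region aligned to the H2-D1 locus at 89.4% identity, and further class I loci aligned at lower identity. Reads were kept by mapping quality, so how reads were divided among these copies is uncertain, and the pair should not be read as independent measurements.

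Outside the promoter, H2-D1 had an upstream region (centre at -4433 bp from the start) with a log2 fold change of 0.05 (SE 0.17) and a pair of regions downstream of the gene with values of -0.71 and -0.65. The nearer downstream region (chr17:35269488-35270186) measured 4.26, 4.31 and 5.43 CPM in young and 2.37, 3.14, 3.50 and 2.55 CPM in aged libraries. Its ages did not overlap, yet it missed the adjusted threshold (SE 0.27, adjusted p = 0.124).

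B2m encodes the light chain shared by all class I molecules, and its promoter was the one member region higher in aged liver at an unadjusted p under 0.05. The region (chr2:122146915-122149155) measured 52.3, 55.9 and 65.1 CPM in young and 66.9, 72.2, 77.0 and 66.6 CPM in aged libraries. All 4 aged libraries lay above the highest young one, young replicate 3, aged replicates 1 and 4 by a small margin. With a log2 fold change of 0.29 (SE 0.11, 95% interval 0.05 to 0.54, adjusted p = 0.134 from edgeR), it had the highest value of the 37 regions. It passed the threshold with offsets fitted on GC content (0.43, adjusted p = 0.0187), and over all alternatives its value ran from 0.03 to 0.43.

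A region centred 8262 bp past the B2m start (chr2:122155186-122156710), downstream of the gene, lay on the other side. It measured 29.1, 25.4 and 25.0 CPM in young and 21.9, 20.8, 21.2 and 16.7 CPM in aged libraries, with no overlap. Its log2 fold change was -0.40 (SE 0.14, 95% interval -0.71 to -0.09, adjusted p = 0.109). The other B2m regions, 1 upstream and 1 farther downstream, had log2 fold changes of 0.08 and -0.09 with ages that overlapped. For both downstream regions, the nearest start of any gene is that of Trim69.

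Tap1 shares its promoter region (chr17:34186593-34188446) with Psmb9, a subunit of the immunoproteasome transcribed in the opposite direction, so that a value there belongs to both genes. It measured 62.5, 56.8 and 63.3 CPM in young and 64.7, 62.2, 79.4 and 64.1 CPM in aged libraries. Aged replicate 3 stood apart from the other aged libraries, which lay close to the young range. This gave a log2 fold change of 0.15 (SE 0.12, 95% interval -0.10 to 0.40, adjusted p = 0.453), or 0.07 without aged replicate 3.

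The regions around Tap1 include promoters of neighbouring genes of the same pathway. The region at the Tap2 promoter (chr17:34204096-34205736), which serves the other chain of the peptide transporter, measured 19.99, 15.8 and 16.4 CPM in young and 12.0, 14.3, 11.9 and 13.7 CPM in aged libraries. The ages did not overlap, and the log2 fold change was -0.42 (SE 0.16, adjusted p = 0.132). The region upstream of Tap1 was also without overlap between ages, at -0.38 (SE 0.17, adjusted p = 0.174). The region at the promoter of Psmb8, another immunoproteasome subunit, had -0.18 (SE 0.18) and an exon region of Tap1 had 0.09 (SE 0.26), both with ages that overlapped.

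Nlrc5, the transactivator of class I genes, had 10 regions, the most of the genes. The promoter region (chr8:94433649-94435127), which also covers the start of 9330175E14Rik, measured 30.2, 30.8 and 31.1 CPM in young and 31.7, 31.8, 36.0 and 32.3 CPM in aged libraries. Every aged library lay above every young one, by little in replicates 1 and 2, and aged replicate 3 stood apart. Its log2 fold change was 0.10 (SE 0.12, 95% interval -0.15 to 0.35, adjusted p = 0.640), or 0.06 without aged replicate 3. With offsets on GC content it was 0.27.

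Of the other 9 Nlrc5 regions, 1 had a log2 fold change above 0, an intron region with 0.21 (SE 0.14), and 8 had values of -0.65 to -0.01. The lowest, in an intron (chr8:94470625-94471109), measured 6.76, 6.43 and 5.43 CPM in young and 3.16, 5.10, 3.50 and 4.33 CPM in aged libraries. The ages did not overlap there, and its log2 fold change was -0.65 (SE 0.25, 95% interval -1.19 to -0.12, adjusted p = 0.126). The farthest downstream region lies at the promoter of Cpne2, which is no antigen presentation gene, and had -0.16 (SE 0.19).

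**Figure D2:**
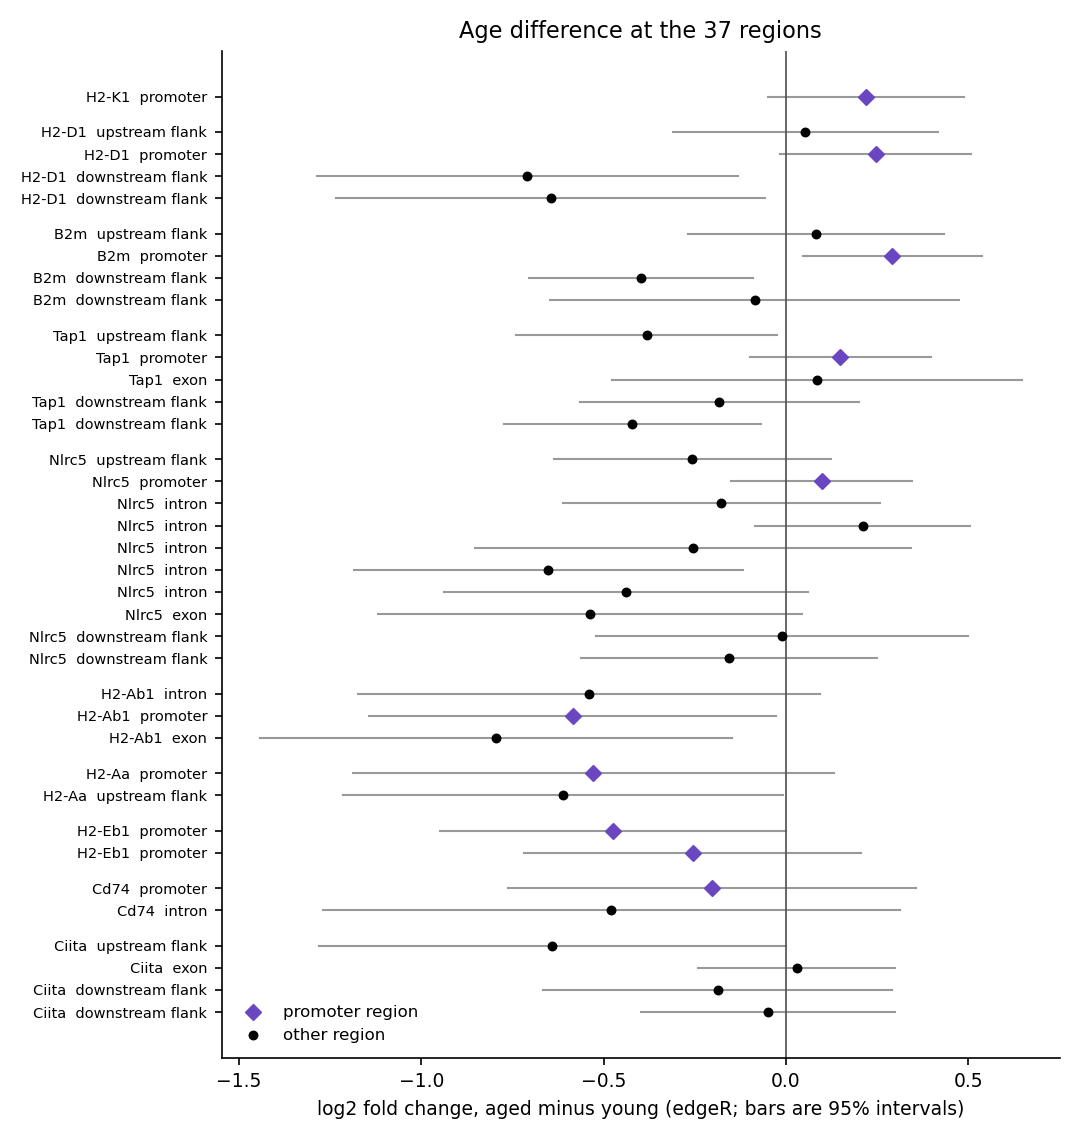
Log2 fold change (aged minus young) of each of the 37 regions by gene, ordered by position within a gene, with 95% intervals as bars, diamonds for promoter regions and circles for other regions. The class I promoters lie at 0.10 to 0.29 and the class II promoters at -0.59 to -0.20, and most other regions lie below 0, 22 of 27.

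H2-Ab1 encodes the beta chain of the I-A molecule, and all 3 of its regions had log2 fold changes of -0.54 or below. Its promoter region (chr17:34262947-34263489) measured 8.05, 6.35 and 9.21 CPM in young and 5.01, 3.14, 5.84 and 6.49 CPM in aged libraries. Only aged replicate 4 lay within the young range, just above young replicate 2. The log2 fold change was -0.59 (SE 0.26, 95% interval -1.14 to -0.03, adjusted p = 0.183).

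The exon region of H2-Ab1 (chr17:34264733-34265289) had the lowest log2 fold change of all 37 regions. It measured 8.61, 6.20 and 6.41 CPM in young and 3.25, 4.51, 2.10 and 6.11 CPM in aged libraries. Every aged library lay below every young one, with aged replicate 4 closest to the young values. The log2 fold change was -0.79 (SE 0.30, 95% interval -1.44 to -0.15, adjusted p = 0.124), and without aged replicate 4 it was -1.08 (adjusted p = 0.0351).

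H2-Aa encodes the alpha chain that pairs with H2-Ab1. Its promoter region (chr17:34287661-34288132) measured 6.39, 4.195 and 4.28 CPM in young and 2.196, 4.31, 4.67 and 3.18 CPM in aged libraries. Aged replicates 1 and 4 lay below the young range and the other two within it, and the log2 fold change was -0.53 (SE 0.31, 95% interval -1.19 to 0.13, adjusted p = 0.310). It was -0.29 without young replicate 1 and -0.31 without aged replicate 1. An upstream region centred at -8356 bp from the start (chr17:34295894-34296464) measured 5.37, 4.27 and 5.26 CPM in young and 2.196, 3.73, 3.04 and 4.07 CPM in aged libraries. There the ages did not overlap, with a log2 fold change of -0.61 (SE 0.28, adjusted p = 0.197).

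H2-Eb1 encodes a beta chain of the I-E molecule, whose alpha chain gene is not functional in this strain. Its promoter region of higher CPM (chr17:34304829-34306319), which also covers a start of the antisense transcript Gm20513, measured 11.6, 16.0 and 16.1 CPM in young and 7.82, 11.6, 14.5 and 9.16 CPM in aged libraries. Aged replicates 1 and 4 lay below all young libraries, replicate 2 beside the lowest of them and replicate 3 within their range. Its log2 fold change was -0.47 (SE 0.22, 95% interval -0.95 to 0.00, adjusted p = 0.205). Another region, at a start inside the gene (chr17:34309506-34310154), had -0.26 (SE 0.22).

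Cd74 is the invariant chain, which fills the peptide groove of new class II molecules. Its promoter region (chr18:60802934-60803953) measured 10.4, 8.09 and 5.59 CPM in young and 5.36, 8.24, 9.34 and 6.11 CPM in aged libraries. The ranges of the ages nearly coincided, and the log2 fold change was -0.20 (SE 0.26, 95% interval -0.76 to 0.36, adjusted p = 0.675). Leaving out 1 library moved it to between -0.36 (without young replicate 3) and 0.02 (without young replicate 1), with -0.06 without aged replicate 1 and -0.33 without aged replicate 3. Its intron region had -0.48 (SE 0.37), with aged values from 1.57 to 7.47 CPM on both sides of the young ones, and moved to -0.26 without aged replicate 2 and to -0.92 without aged replicate 3.

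Ciita, the class II transactivator, had 1 region upstream of its starts, 1 at an exon near its 3′ end and 2 downstream. The upstream region (chr16:10475461-10476390) measured 7.31, 4.65 and 6.08 CPM in young and 2.46, 4.31, 5.60 and 3.56 CPM in aged libraries. Aged replicate 3 lay within the young range and the other 3 below it, and the log2 fold change was -0.64 (SE 0.30, 95% interval -1.28 to 0.00, adjusted p = 0.204). The exon region was the strongest at the class II genes, with a mean of 43.4 CPM in the young libraries (SD 6.88, n = 3) and of 44.4 CPM in the aged ones (SD 2.93, n = 4). Its log2 fold change was 0.03 (SE 0.13). The downstream regions had -0.19 and -0.05. For the exon region and the downstream regions, the nearest start of any gene is that of Dexi.

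Set side by side within each library, the class I promoters lay above the class II promoters by more in the aged libraries. The mean log2 CPM of the 5 class I promoters minus that of the 4 class II promoters was 2.53, 2.80 and 2.79 in young and 3.58, 3.22, 3.11 and 3.40 in aged libraries. Every aged difference exceeded every young one. The means were 2.71 ± 0.15 (SD, n = 3) and 3.33 ± 0.21 (SD, n = 4). They are given as a description without a test, since the genes were chosen as a set. H2-K1 and H2-D1 both enter the class I mean, although they are not independent measurements. Level went the same way. Among 10 equal groups of regions by mean log2 CPM, those holding the class I promoters had log2 fold change medians of 0.16 to 0.28. Those holding the 4 class II promoters had medians of -0.25 to 0.00. The part of level in the wider difference was not tested. The 7 regions of H2-Aa, H2-Ab1 and H2-Eb1 all had log2 fold changes below 0 (-0.79 to -0.26), and the same holds with each alternative scaling for their 3 promoters.

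The age difference went together with the level of a region, in the 37 regions and in all regions. When all regions were ranked by mean log2 CPM into 10 equal groups, the median log2 fold change ran from -0.42 in the weakest group to 0.28 in the strongest. The 4 members in the strongest group, the promoters of H2-K1, H2-D1, B2m and Tap1, had a median of 0.23. The 18 members in the weaker 5 groups had a median of -0.53, and 17 of them lay below 0. The class II promoters were among these, except the H2-Eb1 region of higher CPM, and each lay below the median of its group. Across the 37 regions the correlation of log2 fold change with level was r = 0.79 (Spearman's rho = 0.80), and across all regions r = 0.47 (rho = 0.50); regions of 1 gene share libraries, depth and neighbourhood and are not independent replicates. With offsets fitted on mean abundance, which remove this trend, the class I promoter median was -0.04 and the class II median -0.32.

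**Figure D3:**
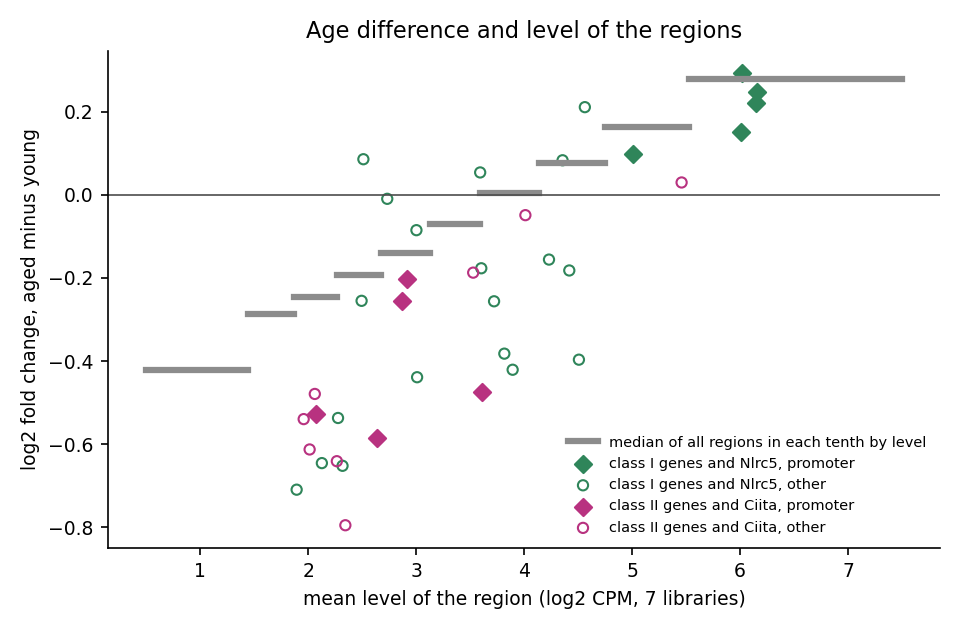
Log2 fold change (aged minus young) against mean level (log2 CPM over the 7 libraries) of the 37 regions, with diamonds for promoters and open circles for other regions, green for the class I genes and Nlrc5 and magenta for the class II genes and Ciita. Grey bars show the median of all regions in each of 10 equal groups by level (the outer bars are shortened), which runs from -0.42 to 0.28.

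Markers of immune cells, among them the main carriers of class II molecules, were measured beside the class II promoters. The Kupffer cell and macrophage promoters found, of Clec4f and the myeloid factor Spi1, summed to 7.30 to 9.16 CPM in young and 3.33 to 6.87 CPM in aged libraries, with log2 fold changes of -0.66 and -0.69 and neither past the test. The medians of all regions in their groups by level were -0.42 and -0.25. The promoters of the defining markers Vsig4, Adgre1, Csf1r, Cd68, Marco and Timd4 had no region. The B cell marker Cd22 had -0.21 (4.998 to 6.25 CPM in young, 3.73 to 5.49 CPM in aged libraries), with no region at markers such as Cd79a, Cd79b, Ms4a1 and Pax5. The T cell marker Lck had 0.04, with no region at the other 6, and the dendritic cell markers Zbtb46 and Batf3 had 0.15 and -0.61 (medians of their groups by level 0.16 and -0.29), with none at Itgax, Flt3, Xcr1 or Clec9a. The part of these cells in the class II values was not tested.

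Markers of other liver cells were measured too. The hepatocyte promoters summed to 704 to 768 CPM in young and 841 to 961 CPM in aged libraries, and 7 of the 8 had log2 fold changes above 0, with a median of 0.19. All of them but Cps1 were in the strongest of the 10 groups by level, where the median of all regions was 0.28. The promoter of Apoa1, the main protein of high-density lipoprotein, rose by 0.53 on the log2 scale (SE 0.13, adjusted p = 0.0331), the only marker promoter called, where 4.48% of all promoter regions were called higher and 2.06% lower. Among all regions in the strongest group by level, which holds the Apoa1 promoter, 11.9% were called in either direction. The Apoa1 promoter was not called without aged replicate 1 or 3 or without any one of the young replicates, which left 0 calls among markers and 188 to 2651 calls among all regions. The 3 stellate cell promoters (sums of 26.6 to 29.1 and 16.1 to 23.5 CPM), 4 endothelial promoters (64.0 to 70.8 and 54.1 to 88.2 CPM) and 2 cholangiocyte promoters (41.7 to 49.5 and 36.7 to 54.3 CPM) had medians of -0.36, -0.07 and -0.41. The medians of all regions in their groups by level were -0.29 to 0.00, -0.19 to 0.16 and -0.29 to 0.16. The cholangiocyte value lies between Epcam at -0.77 and Sox9 at -0.05. The part of these cells in the class I values was not tested.

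Among 49 other genes of antigen presentation, 45 had a promoter region and 3 of these were called, all higher in aged liver, against the same shares of all promoter regions. The 3 are on the list of regulators and lie in the strongest of the 10 groups by level, where 11.9% of all regions were called, so nothing particular to the regulators is read from their number. Ifngr1, the ligand-binding chain of the interferon-gamma receptor, rose from 71.6 to 106.8 CPM (log2 fold change 0.58, SE 0.11, adjusted p = 0.0142). Rfx5 and Rfxank, subunits of the RFX complex that binds the X box, rose from 43.4 to 60.5 CPM (0.48, SE 0.11, adjusted p = 0.0267) and from 42.6 to 62.8 CPM (0.57, SE 0.15, adjusted p = 0.0427). All aged libraries lay above all young ones at Ifngr1 and Rfx5, whereas at Rfxank aged replicate 2, at 49.6 CPM, lay just below young replicate 1, at 50.1 CPM. The count of 3 was 0 without aged replicate 1, young replicate 1 or young replicate 2, 1 without aged replicate 3 and 5 without aged replicate 2, while the calls among all regions were 402, 188, 446, 651 and 2898 in the same order. Offsets on mean abundance gave 0 calls, with 693 among all regions, and offsets on GC content gave 14, with 7529 among all regions.

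The median log2 fold change of the 14 regulators was 0.25. It was above 0 for 13 of them, from 0.06 to 0.58, and Ifngr2 at -0.04. Most of the list was in the strongest group by level, where the median of all regions was 0.28, and the rest in the next, where it was 0.16, so the list lay near the values of all regions of its level. The third RFX subunit, Rfxap, had 0.19. The NF-Y subunits Nfya, Nfyb and Nfyc had 0.39, 0.33 and 0.25, the interferon regulatory factor Irf1 had 0.06, and none of these passed the test. The 23 genes of class I presentation and peptide loading had a median of 0.04, with 14 above 0 and none called, where 61.1% of all promoter regions lay above 0. They ran from the nonclassical class I gene H2-Q2 at -0.75 (SE 0.25, adjusted p = 0.0921) to the proteasome activator subunit Psme2 at 0.47 (SE 0.14, adjusted p = 0.0629). The immunoproteasome promoters had 0.15 at Psmb9, -0.18 at Psmb8 and -0.30 at Psmb10. The Psmb9, Psmb8 and Tap2 regions are the ones described with Tap1, so they count both here and among the 37. Class II accessory and processing genes had a region for 8 of 12, with none called and a median of 0.01, 4 on each side of 0. The weak class II promoters H2-Ob, H2-DMb1 and H2-DMb2 had -0.47, -0.19 and -0.23. The region at a start of H2-DMa (chr17:34118630-34122868) had 0.26 (SE 0.15, adjusted p = 0.307), at 159 CPM in young and 190.5 CPM in aged liver. It is much longer than the regions of those genes, and these CPM are not per kb. Starts of other genes inside it were not listed, so its value may not belong to H2-DMa alone. The processing protease Lgmn, which many cells express, had 0.42 (SE 0.12, adjusted p = 0.0516). H2-Oa, H2-Eb2, Ctss and March1 had no promoter region.

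**Figure D4:**
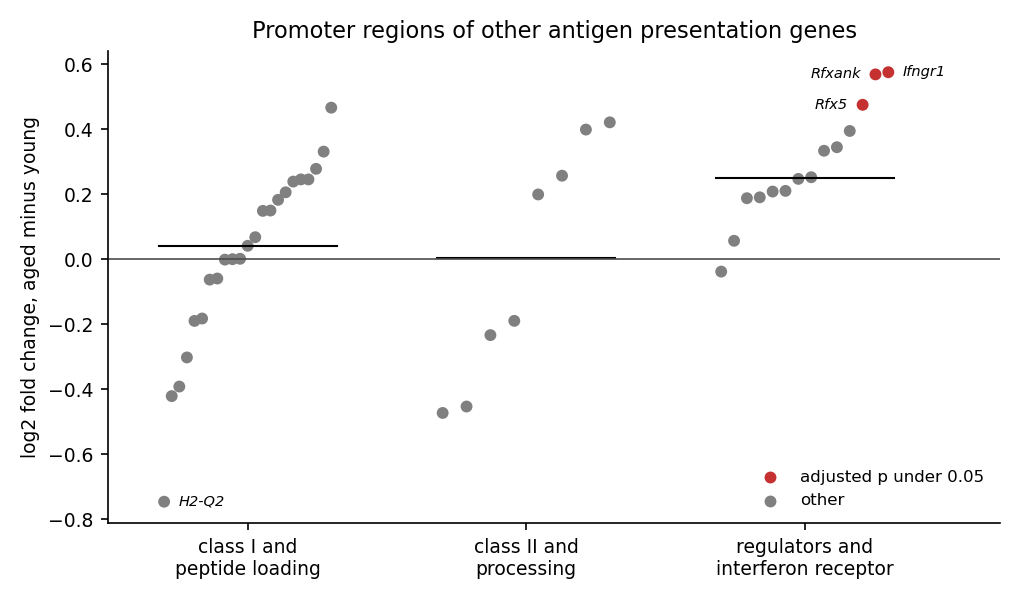
Log2 fold change (aged minus young) of the promoter region of each of the 45 other antigen presentation genes, in order of value within 3 lists, with a black line at each list's median and red points for an adjusted p under 0.05. The medians are 0.04, 0.01 and 0.25, and the red points are Ifngr1, Rfx5 and Rfxank, all among the regulators.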

How the data were processed

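The authors deposited raw counts per library for consensus regions, without normalization. According to the methods and the submitters' processing notes, reads were trimmed with cutadapt 1.13, aligned to GRCm38 with Bowtie2 2.4.1, filtered for mapping quality, PCR duplicates and mitochondrial reads, and counted with featureCounts in MACS2 2.2.7 peaks found in at least 2 libraries. Each column was matched to a sample by its description.

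All regions were fitted with edgeR 4.0.16 (R 4.3.3): TMM normalization, age as the only factor, no filter, quasi-likelihood test, Benjamini-Hochberg adjustment over all regions. DESeq2 1.42.0 and limma 3.58.1 were alternatives. CPM are TMM-normalised counts scaled by library size, and log2 CPM used a prior count of 2. Regions were annotated with GENCODE M21, and copies were searched with minimap2 2.31 (80% of a region at 95% identity or more; none found). In data simulated from these libraries, the fit recovered 96% of 200 changed regions among 55680, with a median absolute log2 fold change of 1.50. The changes were planted only in better-covered regions, with the same variability in all regions, and were larger than that of any member region. Recovery of changes of the size seen at the member regions was not measured. Same-age libraries differed by more than counting noise (chi-square per degree of freedom 2.38 to 6.06).

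The genes described were the 10 members, each by its promoter region (the strongest where there were several) and its region of smallest p elsewhere, regions whose ages did not overlap, and other pathway genes past the threshold; further genes of the lists were named after their values were seen. Members and lists were chosen with earlier results of these data known.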

Additional observations from a re-analysis of the deposited data

Results flagged for a closer look

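At the promoter and the region of smallest p elsewhere of each gene, 17 regions in all, the 4 aged libraries were searched for one far from the rest, and chance marks about 1 in 20 such groups. Aged replicate 3 stood apart at 2 promoters. At Tap1 it measured 6.31 log2 CPM, against 5.96 to 6.02 in the other aged and 5.83 to 5.99 in the young libraries. At Nlrc5 it measured 5.18 log2 CPM, against 4.996 to 5.02 in the other aged and 4.93 to 4.97 in the young libraries. Aged replicate 3 also had the smallest total count. Without it, the log2 fold change was 0.07 at Tap1 and 0.06 at Nlrc5.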

How the results depend on the processing

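Among the 37 regions the count of 0 calls became 1 with offsets on GC content (the B2m promoter), with the replicate block (the H2-Ab1 exon region, -1.10, adjusted p = 0.0377) and without aged replicate 4 (the same region), and ran from 0 to 1 when each library was left out. Over all regions, these 3 fits made 7529, 4152 and 4230 calls, against 3198. The other alternatives for the count gave 0. The replicate numbers did not pair the samples: deviations of same-numbered libraries correlated at -0.12, 0.06 and 0.03, so the block, which leaves out aged replicate 4, uses numbers only, and the same 6 libraries without it also gave 1 call. The median of -0.26 became -0.12 with offsets on GC content and ran from -0.33 to -0.17 when each library was left out. The median of all regions was -0.15 with total counts and 0.07 with offsets on GC content, against -0.04.

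The 3 calls among the other antigen presentation genes became 8 with DESeq2, 7 with voom, 14 with offsets on GC content and 0 with offsets on mean abundance. Thinning to the smallest total and total counts each gave 1, and a threshold of 0.01 gave 0. Calls over all regions moved too, to 4691 with DESeq2, 4580 with voom, 693 with offsets on mean abundance, 410 with thinning and 3474 with total counts. With aged libraries summed in pairs, replicates 1 and 3 gave 1, replicates 2 and 4 gave 7, and replicates 3 and 4 gave 1, with 962, 4742 and 2154 calls over all regions. Leaving out each library gave 0 to 5. The 1 call among cell type markers became 2 with DESeq2 (both higher) and with total counts, the replicate block and aged replicates 1 and 4 summed (1 higher and 1 lower in each), and 3 with offsets on GC content (all higher). It became 0 with offsets on mean abundance, thinning, at least 10 counts in every library, aged replicate 3 summed with 1 or with 4, and a threshold of 0.01, and was 0 to 2 when each library was left out, with 2 without aged replicate 4.

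Direction turned with offsets on mean abundance at the promoters of H2-K1 (-0.052), H2-D1 (-0.03), Tap1 (-0.11) and Nlrc5 (-0.041), with total counts at Nlrc5 (-0.02) and without young replicate 1 at Cd74 (0.02, with a range of -0.364 to 0.02 when each library was left out). In each of these the adjusted p stayed above 0.05; the cause was not tested. The promoters of B2m, H2-Ab1, H2-Aa and H2-Eb1 kept their direction in all alternatives run. The smallest count behind a member value was 8 reads, so weak class II regions have wide intervals and differences of their size may go undetected at this depth.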
